A study of Xenopus tropicalis with 2 samples.

Results

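A set of 10 genes that carry a cell into or out of the division cycle was examined in a thyroid hormone receptor (TR) chromatin immunoprecipitation experiment on tadpole brain. They are the origin licensing gene orc1, the pocket protein genes rb1 and rbl1, the CDK inhibitor gene cdkn2c, the D cyclin genes ccnd1 and ccnd2, their kinase genes cdk4 and cdk6, the replication clamp gene pcna and the mitotic kinase gene aurka. Members were the rows of the deposited list that carried these names, each checked against the deposited gene description. Of the 10 genes, 6 had a listed peak and 4 had none. Their 6 peaks stand among 6302 in all, and among the 5285 genes paired with a peak. The members were chosen by the presence and the fold of their peaks in an earlier look at the same list, together with the D cyclin genes and their kinases, so counts and folds are a description and no test was made on them.

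The material was the middle brain region (preoptic area, hypothalamus, thalamus) of wild-type tadpoles of Xenopus tropicalis, a frog, at metamorphic climax (stage 62 of Nieuwkoop and Faber, NF62). The TR ChIP group was 1 library from chromatin precipitated with a polyclonal antiserum to Xenopus TRs. The input group was 1 library with no antibody, from the same genotype, region and stage. Neither group had a replicate, so the spread between animals is not known and no p-value between groups was computed.

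Over all peaks the median fold was 4.06 (quartiles 3.45 to 4.94). A median of 24 ChIP fragments covered a summit. Total depths are unknown, because the list holds peaks only. Of the neuron markers snap25, tubb3, elavl3, elavl4, syt1 and gria2, all 6 had a listed peak. Of 4 reference-matched markers of radial glia 1 had (sox2), and of 8 of oligodendrocytes, microglia and skeletal muscle and 3 of liver 0 had. Over all named protein-coding genes, 29.8% had a listed peak. A peak list gives no RNA level and cannot establish the tissue. The dissected region mixes cell types, so a peak in few cells and a weak peak in many cells cannot be told apart.

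D cyclins bind CDK4 and CDK6, and these kinases phosphorylate the pocket proteins, which otherwise hold E2F transcription factors in check. Freed E2F switches on genes for DNA replication, such as ORC1, the largest subunit of the complex that marks replication origins, and PCNA, the ring that tethers DNA polymerases. INK4 proteins such as the product of cdkn2c bind CDK4 and CDK6 and block this step. Thyroid hormone acts through TRs, nuclear receptors bound to DNA, and is known to raise cell proliferation in the brain of the metamorphosing tadpole.

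The 6 peaks lay at promoters, though not always at that of the cell cycle gene. Every summit lay within 1 kb of the transcription start site (TSS) of at least 1 gene with which its peak was paired, and within 1 kb of the TSS of the cell cycle gene itself in 4 of 6. Over the whole list, a summit within 1 kb of the TSS of a paired gene was the common case. It held for 3382 of the 5214 peaks in gene regions (64.9%). Folds of the 6 peaks ran between 3.52 at pcna and 9.23 at orc1, with a median of 6.60. For reference, 29.8% of all 15628 named protein-coding genes had a listed peak, 18.2% had one paired with no other gene, 22.0% had a summit within 1 kb of their TSS and 24.7% were the nearest TSS to a peak. Among the 10 members these counts were 6, 2, 4 and 3, from which nothing is read, since the members were chosen with their peaks known. Only rb1 and rbl1 had a peak of their own, paired with no neighbour.

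**Figure D1:**
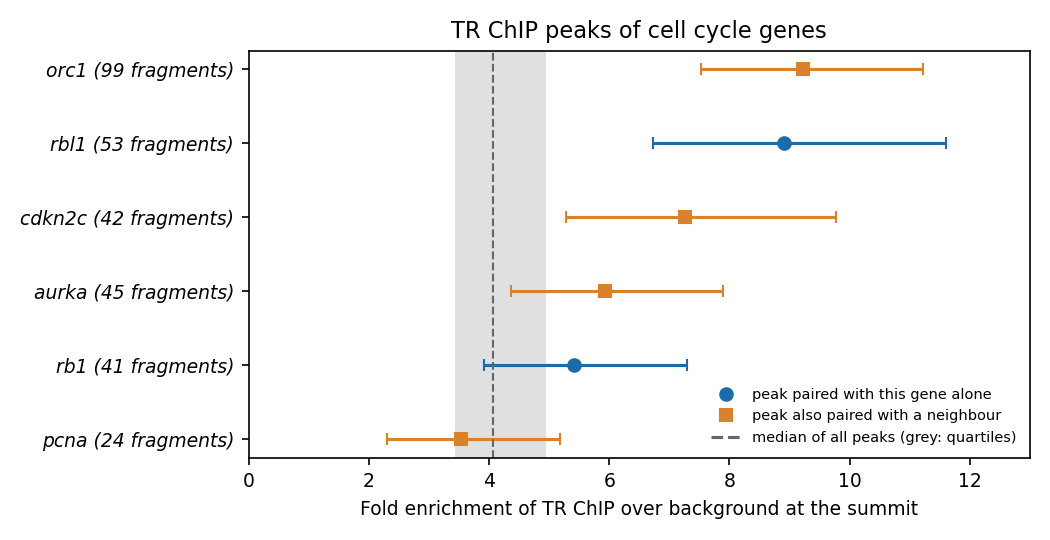
Fold enrichment of TR ChIP over background at the summit of the 6 peaks, with 95% Poisson intervals on the ChIP fragments; the number of ChIP fragments stands beside each name, circles are peaks paired with that gene alone and squares are peaks also paired with a neighbour. The dashed line is the median of all 6302 peaks (4.06) and the grey band their quartiles; pcna alone lies under the median.

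The pocket protein genes gave the clearest assignment. The gene rbl1 (ENSXETG00000007414) encodes p107, a pocket protein that represses E2F target genes. Its peak at chr10:33865674-33865996 had 53 ChIP fragments at the summit over a background of 5.06 fragments. The fold was 8.92 (95% Poisson interval 6.72 to 11.6), and 172 was its rank by fold among the 6302 peaks. The summit sat 159 bp upstream of the TSS, and the peak ended just short of the gene body. No other gene region held it. The peak was 323 bp wide, close to the median of 333 bp over all peaks.

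The gene rb1 (ENSXETG00000031493) encodes the retinoblastoma protein, the founding pocket protein and a brake on entry to S phase. Its peak at chr2:131625049-131625691 straddled the TSS, with the summit 17 bp upstream. At 643 bp it was wider than 90.3% of all peaks. The summit held 41 ChIP fragments over a background of 6.76, a fold of 5.41 (3.92 to 7.30). The rb1 gene body of the deposited annotation runs on to 131719289, and no other listed peak was paired with it. The interval of rb1 overlapped that of rbl1, so their order by fold is not settled.

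The other pocket protein gene, rbl2, which encodes p130, was not among the members but belongs beside them. Its only peak, paired with no other gene, lay 566 bp downstream of the TSS. The summit held 22 ChIP fragments and the fold was 2.96 (1.91 to 4.42). Of the pocket protein genes, rb1 and rbl1 were chosen with their peaks known, so that their peaks are no sign of a property of the family. Among these genes rbl1 had the highest fold and rbl2 the lowest. The error of the background is not in the intervals, and rbl1 was chosen with its fold known. No order of the genes is therefore read from them.

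The strongest peak of the set was paired with orc1 but lay nearer to another gene. The peak at chr4:86511965-86512514 had 99 ChIP fragments at its summit, more than 99.6% of all peaks, over a background of 9.83. The fold was 9.23 (7.52 to 11.2), and 154 was its rank by fold. The summit lay 1257 bp upstream of the TSS of orc1 (ENSXETG00000008059) and 68 bp inside prpf38a (ENSXETG00000008060), a pre-mRNA splicing factor gene that is transcribed the other way. These divergent TSSs were 1189 bp apart, and the peak covered that of prpf38a only. By nearest TSS the peak belongs to prpf38a, and orc1 then had none.

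The peak paired with cdkn2c was the most remote. Its product is p18, an INK4 inhibitor linked to exit from the cycle. The peak at chr4:85903163-85903834 had 42 ChIP fragments over a background of 4.92, a fold of 7.27 (5.29 to 9.77). The summit lay 9950 bp upstream of the TSS of cdkn2c (ENSXETG00000033220), at the very edge of the 10 kb window. The same summit lay 39 bp inside faf1 (ENSXETG00000002841), the gene of a Fas-associated factor, and the peak covered the faf1 TSS. Between the faf1 and cdkn2c TSSs, 9911 bp apart, no other peak was listed, and the next peak along the chromosome was 139 kb away. With summits limited to 5 kb from the TSS, cdkn2c had no peak.

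The aurka peak sat in a short divergent promoter. Aurora kinase A drives centrosome maturation and spindle assembly in mitosis. On the unplaced scaffold KV460429.1, at 346224 to 346620, 45 ChIP fragments lay over a background of 6.76, a fold of 5.93 (4.36 to 7.89). The summit was 263 bp upstream of the aurka TSS (ENSXETG00000012032) and 17 bp inside cstf1 (ENSXETG00000012030). The gene cstf1 encodes a subunit of the cleavage stimulation factor, which acts on pre-mRNA before polyadenylation. Only 246 bp separated the TSSs. The peak covered the start of cstf1 and stopped short of that of aurka.

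The weakest of the 6 peaks was that of pcna. The peak at chr3:111208465-111208784 had 24 ChIP fragments over a background of 6.09, a fold of 3.52 (2.31 to 5.18). It was higher than 28.1% of all peaks, and lay inside the gene with its summit 303 bp downstream of the TSS (ENSXETG00000008193). It was also paired with tmem230 (ENSXETG00000024909), whose TSS lay 6412 bp away on the same strand. Here the cell cycle gene was the nearer gene.

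**Figure D2:**
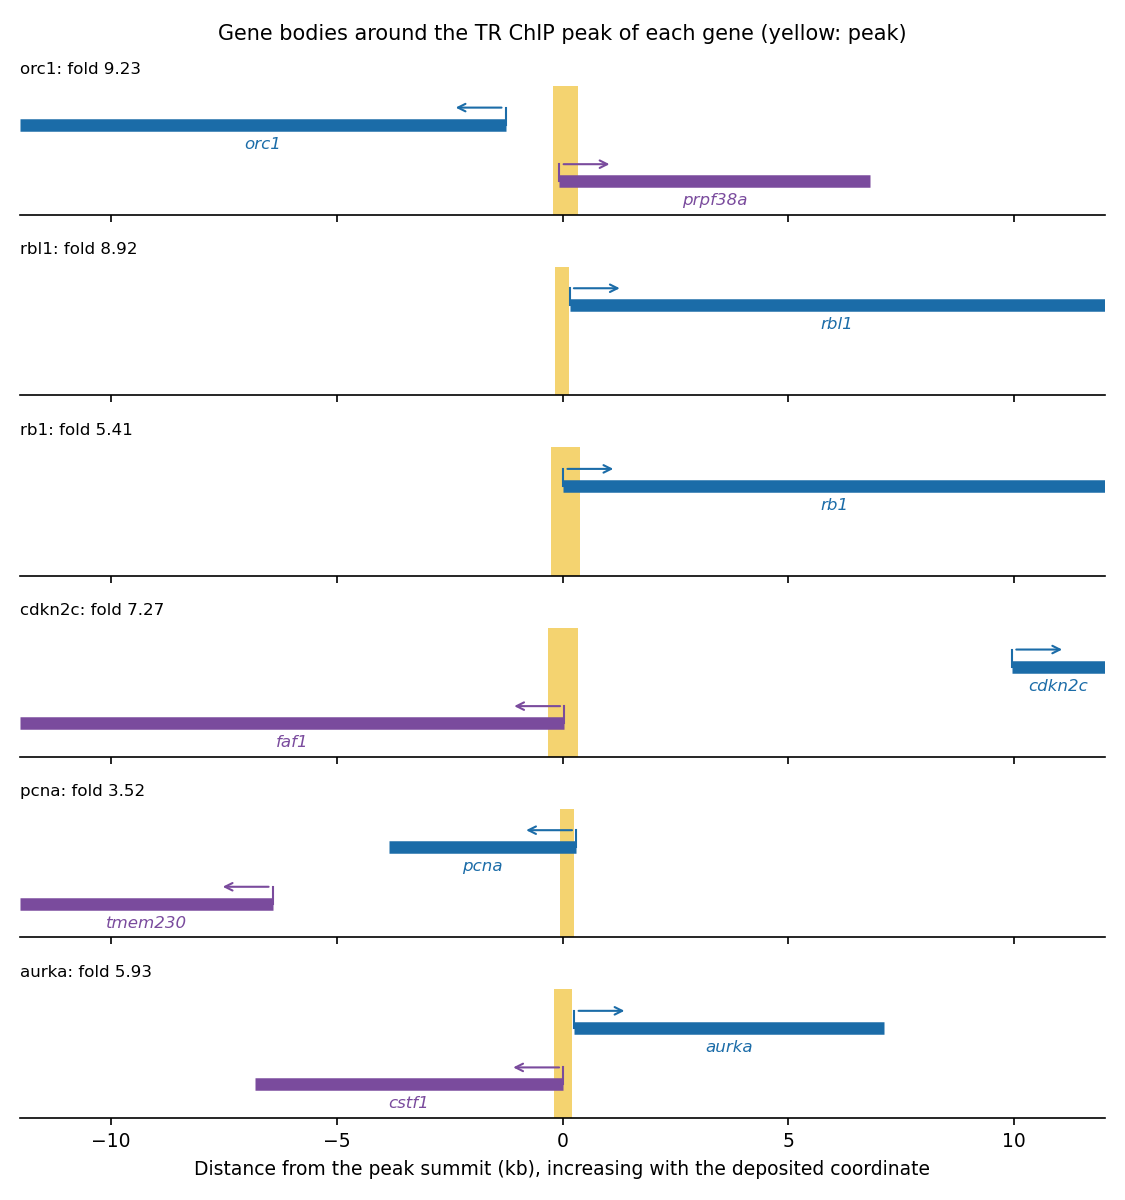
Gene bodies (bars) and TSSs (bent arrows, pointing in the direction of transcription) within 12 kb of the summit of each of the 6 peaks, with distance from the summit in kb on the horizontal axis; yellow marks the peak, blue the cell cycle gene and purple the neighbour paired with the same peak. The peaks of orc1, cdkn2c and aurka cover the start of the neighbour, at summit distances of 68, 39 and 17 bp.

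Of the 4 shared peaks, 3 lay between or at divergent TSSs, with the neighbour nearer in each. Divergent pairs were also the usual arrangement in the list as a whole, at 719 of the 1079 peaks paired with exactly 2 genes (66.6%). The pairing takes in 10 kb upstream of each gene, so a peak between divergent TSSs less than 10 kb apart is paired with both. This share thus depends on the pairing rule. The TSSs of divergent pairs were a median of 2368 bp apart over the list. The 246 bp of aurka and cstf1 were below this median, and the 9911 bp of cdkn2c and faf1 above it. Peaks paired with 2 genes had a median fold of 4.44, against 3.996 for the 3961 peaks paired with 1 gene.

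The background behind these folds could be resolved into whole control tags. The control library is not named in the list, and the series holds 1 input. At orc1, 99 ChIP fragments stood against 16 control tags in a window of 1 fragment length (211 bp), each tag counted as 0.6144 fragments. The same window gave 42 ChIP fragments against 8 tags at the cdkn2c peak. It gave 45 ChIP fragments against 11 tags at aurka and 41 against 11 at rb1. The rbl1 and pcna backgrounds came from a 1 kb window instead, with 39 and 47 tags. With the counting error of the tags included, the ratio of ChIP fragments to background fragments was 10.1 (95% exact conditional binomial interval 5.90 to 18.3) at orc1 and 10.5 (6.80 to 16.3) at rbl1. It was 8.54 (3.96 to 21.1) at the cdkn2c peak and 6.66 (3.39 to 14.3) at aurka. At rb1 it was 6.07 (3.06 to 13.1), and at pcna 3.94 (2.30 to 6.57). Among the 6 peaks, the intervals of rbl1 and pcna alone did not overlap. These 2 backgrounds came from the 1 kb window, with more tags than the others, and members were chosen with their folds known. No order of the 6 peaks in strength is therefore read from these intervals, and it is not settled at this depth.

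**Figure D3:**
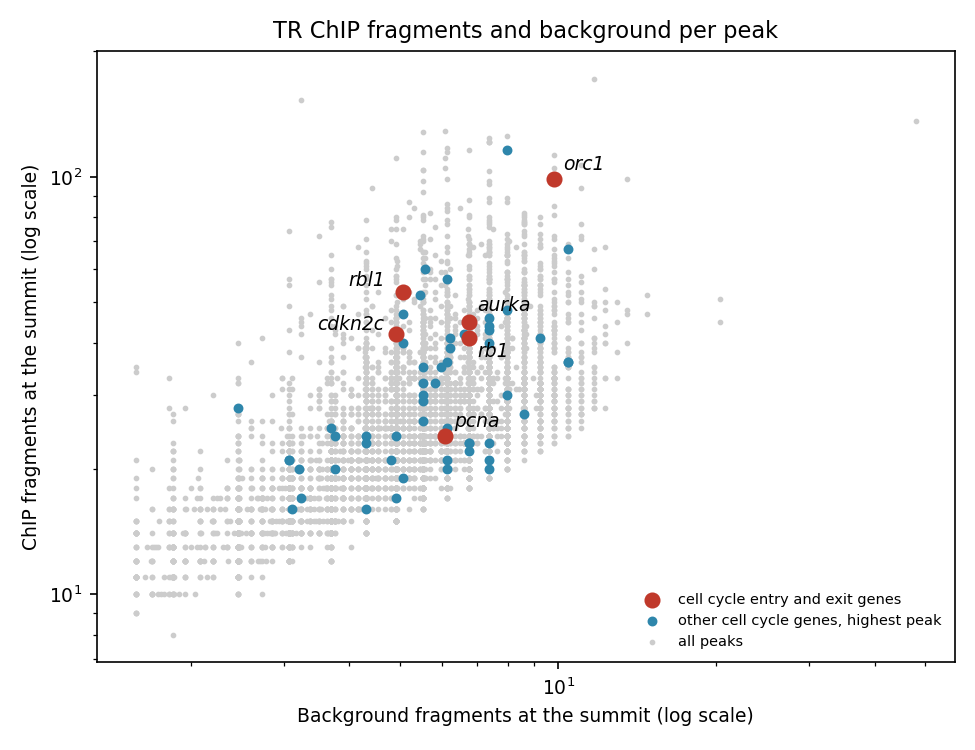
ChIP fragments (vertical, log scale) against background fragments (horizontal, log scale) at the summit of all 6302 peaks (grey), with the 6 peaks of the cell cycle entry and exit genes in red and the highest peak of each other listed cell cycle gene in blue. The orc1 peak combines 99 ChIP fragments with a background above that of 97.0% of peaks, and the pcna peak lies low in the cloud with 24.

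Other listed peaks near each summit were counted, but not for the list as a whole, so whether these counts are low is not known. The aurka count covers its unplaced scaffold only. Within 100 kb of the summit there was 0 other peak for cdkn2c and pcna, 1 for orc1 and 2 each for rb1, rbl1 and aurka. The closest was 11.0 kb from the rbl1 summit, in the neighbouring chromatin remodeller gene chd6, with a fold of 3.63. None of the 6 genes had a second peak. Among other listed cell cycle genes, 11 of 53 with a peak had more than 1. This share was not computed over all named genes with a peak, so nothing is read from these counts.

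The D cyclins and their kinases had no listed peak. Over all named protein-coding genes, 29.8% had one, so to have none was the common case. No row carried the name ccnd1, ccnd2, cdk4 or cdk6, and 0 descriptions named their products. A site under the peak caller's threshold, or further than 10 kb upstream, would not appear under these names. Neither would a gene that the deposited annotation lacks or leaves unnamed. Absence from the list thus does not show absence of receptor. In the reference table cdk6 spans 100063 bp, ccnd2 48483 bp, cdk4 36521 bp and ccnd1 13909 bp.

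The surroundings of these genes were bracketed by the nearest neighbours that do have a peak, with gene order taken from the reference assembly. This order need not hold in the deposited coordinates. It places aurka on chromosome 10 between pmepa1 and kat2a, while the listed aurka peak is on scaffold KV460429.1. In that order, cdk6 lies next to fam133b on one side and vps50 is 3 genes away on the other. Between the bodies of these 2 genes the list held 1 peak, with 24 ChIP fragments and a fold of 5.11. It lay 2.55 kb from fam133b, with which it was paired, and 258 kb from vps50. For ccnd2 the bracket ran between c12orf4 and maml1, 933 kb apart, and held 1 peak of fold 4.92 with 13 ChIP fragments that was paired with no gene. For ccnd1 the bracket was wider still, between mdk, 25 genes away, and cttn, and it held 4 peaks with a highest fold of 6.23. For cdk4 it ran between emsy and pde2a, 64 and 51 genes away, and held 7 peaks with a highest fold of 5.78. Peaks paired with emsy, mogat2.2, map6, gdpd5 and trim21 were among these 7. Genes with a peak thus lay inside this bracket in the deposited coordinates, and whether cdk4 lies there is not known. The distances of these peaks from the D cyclin and kinase genes are not known, since the list gives no position for genes without a peak.

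Other genes of the cycle were counted by role, from a list of 163 genes beside the members. Of these, 156 were found in the reference table, and ccnd3, cdk3, cdkn1c, cdkn2a, cdkn3, e2f2 and rrm2 were not matched there by symbol and were left out. A listed peak was present for 53 of the 156 (34.0%), beside the 29.8% of all named genes. The median of their highest folds was 4.75, beside 4.37 over all 4660 named genes with a peak. A summit lay within 1 kb of the gene's own TSS for 40 of the 53, and 33 had a peak paired with no other gene. Over the 4660 named genes with a peak, these counts were 3437 and 2846. Counts by role follow as a description, and no difference between roles was tested.

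**Figure D4:**
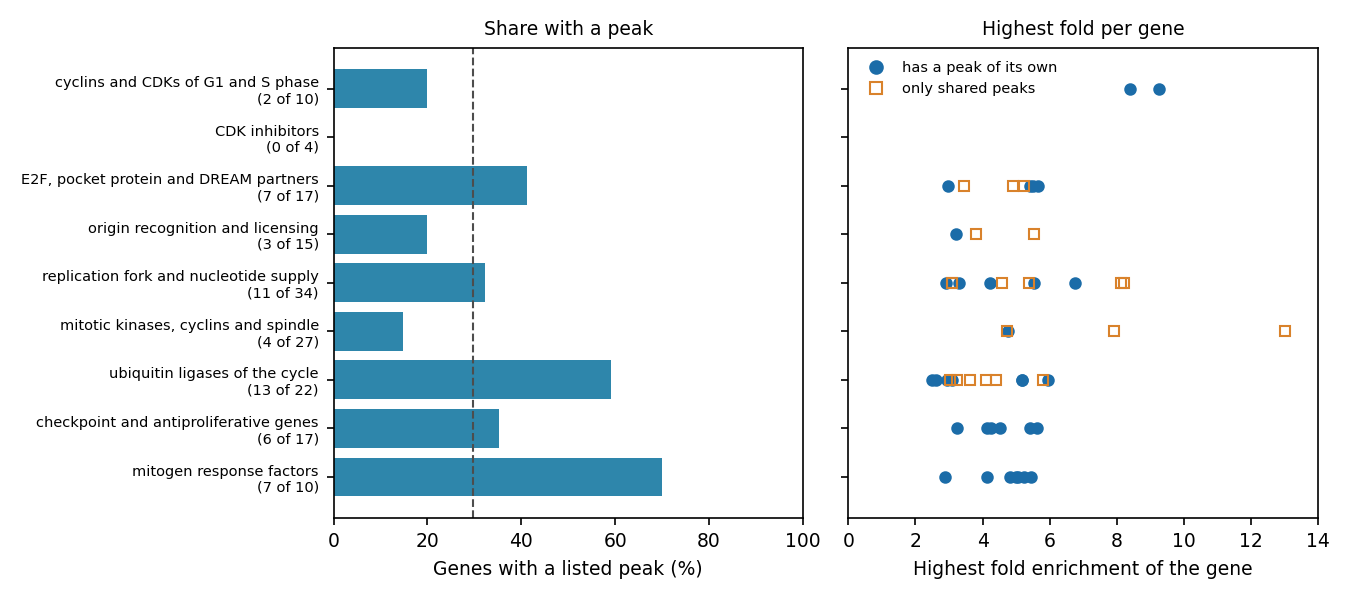
Left, the share of genes with a listed peak by role in the cell cycle, members left out, with the dashed line at the 29.8% of all named protein-coding genes; right, the highest fold of each gene with a peak, as circles where the gene has a peak of its own and squares where all its peaks are shared. Shares run between 0 of 4 listed CDK inhibitors, a list without cdknx, and 7 of 10 mitogen response factors, and no difference between roles was tested.

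Among cyclins and kinases of G1 and S phase, peaks were listed for 2 of 10 genes, beside the 29.8% of all named genes. Both encode parts of the CDK-activating kinase, which also belongs to the general transcription factor TFIIH, and mnat1, the gene of the remaining subunit of that kinase, had none. Its cyclin gene ccnh had a fold of 9.28 (7.12 to 11.9) 59 bp downstream of the TSS. Its kinase gene cdk7 had a fold of 8.39 (5.67 to 11.99) 63 bp downstream. Both peaks were paired with no other gene. No peak was listed for ccne1, ccne2, ccna1, ccna2, cdk2, cdc25a or ccnc either.

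Of the CDK inhibitor genes on the list, cdkn1a, cdkn1b, cdkn2b and cdkn2d, 0 of 4 had a listed peak. The share of all named genes was 29.8%. The Xenopus inhibitor gene cdknx was not on that list and had 3 peaks. Genes of the E2F factors, the pocket protein rbl2 and their DREAM complex partners held peaks in 7 of 17. That is 41.2%, beside the 29.8% of all named genes. The E2F family genes e2f5 (5.65, 4.11 to 7.59, 138 bp upstream of the TSS), e2f6 (5.51, 3.89 to 7.61) and e2f8 (5.40, 3.44 to 8.13) led the folds. The e2f6 peak lay 177 kb into its gene and the e2f8 peak 7.62 kb upstream, so of these e2f5 alone had its peak at the TSS. The repressor-type genes e2f4 and e2f7, the activator gene e2f1, the E2F partner genes tfdp1 and tfdp2, and lin9, lin37, lin54, mybl2 and foxm1 had none.

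Origin licensing genes other than orc1 held peaks in 3 of 15, beside the 29.8% of all named genes. The highest was at mcm10 (5.54, 3.98 to 7.52), a factor that acts as origins fire, 124 bp upstream of its TSS in a region shared with thap9. The ORC subunit genes orc6 (3.80, 2.42 to 5.71) and orc4 (3.21, 1.91 to 5.09) followed, at 705 and 88 bp upstream of their TSSs. The orc6 peak was nearer to vps35. All 6 subunit genes of the MCM helicase, mcm2 to mcm7, were without a peak, as were orc2, orc3, orc5, cdc6, cdt1 and gmnn.

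Over all named genes, 29.8% had a listed peak. Genes of the replication fork and of nucleotide supply, the group nearest to pcna, held peaks in 11 of 34 (32.4%). Those of gins1 (8.22, 6.18 to 10.7), a subunit of the replicative helicase, rpa1 (8.12, 6.18 to 10.5) and rpa2 (6.77, 4.88 to 9.16), subunits of the single-strand binding protein, lay 71, 153 and 42 bp from their TSSs. The Poisson intervals of gins1 and rpa1 lay above that of pcna, and the interval of rpa2 overlapped it. The error of the background is not in these intervals, so the order of these genes and pcna is not settled. The gins1 and rpa1 peaks were shared with abhd12 and smyd4. No peak was listed for rfc3, rfc4, rfc5, pola2, prim1, prim2, pold1, pold2, pole, pole2, rpa3, gins2, gins4, cdc45, cdc7, fen1, lig1, rrm1, dhfr, tk1, top2a, chaf1a or chaf1b.

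Mitotic genes other than aurka held peaks in 4 of 27, beside the 29.8% of all named genes. The fold at pkmyt1, the kinase that keeps CDK1 inactive, was 13.0 (10.8 to 15.6) from 116 ChIP fragments. This fold was higher than in any member, though its interval overlapped those of orc1 (7.52 to 11.2) and rbl1 (6.72 to 11.6). The pkmyt1 summit was 43 bp upstream of the TSS, but the start of elob, an elongin subunit gene, was nearer still. The incenp peak (7.93, 5.87 to 10.5) lay 8.45 kb upstream of that chromosomal passenger gene and nearer to ftmt. Of the 3 with the highest folds, mki67 (4.75, 3.25 to 6.71), the gene of the proliferation marker Ki-67, alone had a peak of its own, 158 bp upstream of the TSS. The genes aurkb, plk1, tpx2, bora, nek2, cdk1, ccnb1, ccnb2, ccnb3, cdc25b, cdc25c, wee1, bub1, bub1b, bub3, mad2l1, ttk, kif11, kif23, cenpa, cenpe, birc5 and cdca8 had no listed peak.

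Ubiquitin ligases that clear cell cycle proteins held peaks in 13 of 22, beside the 29.8% of all named genes. Their folds were modest (median 3.64). The highest were at fbxw7 (5.94, 4.62 to 7.52), whose product targets cyclin E, and at the anaphase-promoting complex genes anapc1 (5.82, 4.21 to 7.84) and cdc23 (5.18, 3.67 to 7.12). These fbxw7 and anapc1 peaks were shared with ercc8 and rbbp9. The gene fbxw7 had 2 peaks, and the one with the lower fold was paired with no other gene. No peak was listed for skp2, cul1, fbxo5, anapc4, anapc7, cdc16, cdc26, cdc27 or cks2.

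Checkpoint and antiproliferative genes held peaks in 6 of 17, and mitogen response factors in 7 of 10. These counts stand beside the 29.8% of all named genes. Every gene of both groups with a peak had at least 1 that was paired with no other gene and at least 1 within 1 kb of its TSS. Of all 4660 named genes with a peak, 2846 had the former and 3437 the latter. Among antiproliferative genes, tob2 had 3 peaks and a highest fold of 5.61 (4.14 to 7.45), and gadd45g had a highest fold of 4.53 (2.94 to 6.70). These highest peaks were not those within 1 kb, with summits 1449 bp (tob2) and 1870 bp (gadd45g) upstream of the TSS. Among mitogen response factors the highest folds were at max, the partner of MYC (5.45, 4.05 to 7.19), egr1 (5.25, 3.44 to 7.71) and mnt (5.05, 3.51 to 7.07), an antagonist of MYC with 5 peaks. The summits of these peaks lay 55 bp upstream of the TSS at max, 1576 bp downstream at egr1 and 24 bp upstream at mnt. No peak was listed for mdm4, atm, atr, chek1, chek2, btg2, btg3, tob1, gadd45a, gadd45b, ccng1, mycl, mxd1 or mxd4.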

How the data were processed

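The deposited file is a list of 7848 pairs of a TR ChIP peak and a gene, and per the file headers each peak has a fold ratio over background, a −log10 p-value, a −log10 adjusted p-value and a score. The deposited score is the −log10 adjusted p-value times 10 without decimals. MACS2 2.2.6 and BWA 0.7.17 are among the tools named, per the submitters' processing notes, with no role stated, and no genome build is named there. Coordinates are the deposited ones. Peaks were taken with each gene whose body or upstream 10 kb they overlap, as deposited, and gene models have no exons or UTRs.

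Whole ChIP fragments and the background were solved from fold and p-value (SciPy 1.17.1), to within 2.48e-05 in −log10 p for every peak, after the step was tested on simulated data. Control tags were read from the steps on which backgrounds lie (tolerance 0.0005 fragments). Intervals cover counting error only, and the peaks were selected for being high. PCR copies are not independent molecules.

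Gene names follow the NCBI gene number of the description where it has one (reference assembly UCB_Xtro_10.0), otherwise the deposited name where the description has a curated source. This left 336 of 5285 genes unnamed. Members, gene lists and counts were chosen with earlier results of these data known. Named genes are the members, genes sharing their peaks, and in each role up to 3 with the highest fold, together with genes that had no peak; 1 gene that this rule names is not reported here. Sequences were not used here.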

Additional observations from a re-analysis of the deposited data

How the results depend on the processing

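With each peak given only to the gene with the nearest TSS, 3 of the 10 genes had a peak (rb1, rbl1 and pcna) and not 6, and 3 members kept the fold given above. With only peaks paired with no other gene, 2 kept it. Among the strongest 1000 peaks, 18 of the other cell cycle genes had a peak and not 53, since fewer peaks cover fewer genes. The remaining alternatives stayed within 1.5 times of these counts. Summits within 5 kb of the TSS dropped cdkn2c, and the 3151 stronger peaks or the strongest 1000 dropped pcna. The order of the 6 folds was the same by −log10 adjusted p-value, and by ChIP fragments aurka and cdkn2c changed places. No paired analysis was possible because each group has 1 library. Few fragments behind each summit, unknown total depths and 1 ChIP library limit all these values.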

Other observations

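Some cell cycle genes outside the counted lists also had peaks, and they were chosen after their values were seen. The gene cdknx encodes Xic1, the CDK inhibitor known from Xenopus for its role in exit from the cycle. It had 3 peaks paired with no other gene on chromosome 7, between 109489594 and 109491417, with summits 1510, 969 and 300 bp downstream of the TSS. Their folds were 3.67 (2.19 to 5.83), 3.21 (1.97 to 4.98) and 3.22 (2.07 to 4.80), from 16, 18 and 22 ChIP fragments, and their intervals overlapped each other. The cdk11b kinase gene had its summit 22 bp upstream of the TSS, at a fold of 5.51 (3.89 to 7.61). At the CDK2-associated gene cdk2ap1 the summit was 515 bp downstream, at 3.56 (2.39 to 5.12).

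Between rb1 and the nuclear receptor gene nr4a1, a peak at chr2:131988887-131989617 was paired with no gene. It had 47 ChIP fragments and a fold of 8.11, and lay 27.2 kb from the nr4a1 body and 364 kb from the rb1 summit.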
